A study of Saccharomyces cerevisiae with 15 samples.

Results

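Ribosome footprints from glucose-starved yeast were compared with footprints from yeast growing on glucose, to describe how ribosomes were divided among genes in each state. The series has 15 libraries, of which the 6 used here are the footprint libraries prepared with cycloheximide, an inhibitor that holds elongating ribosomes on the mRNA. All came from YWG25, a wild-type budding yeast strain of the Sigma1278b background, whose growth is described as YPD medium at 30 °C to an optical density near 0.7, followed by 100 µg/ml of cycloheximide, centrifugation and freezing. Of these, 3 libraries were titled +GLU (with glucose) and 3 were titled -GLU (without glucose). The sources used here do not give how long glucose was withheld or what medium replaced YPD, and the same growth text stands in the labels of both states. Of 5704 genes in the deposited table, 5703 were analysed and 5319 had enough counts to be tested. The question named in the series is how translation adapts to glucose starvation.

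A footprint is the stretch of mRNA of about 28 nt that a ribosome protects from RNase I, so the footprints of a gene count the ribosomes on its mRNAs, and its share of all footprints is its share of the ribosomes that are translating. Yeast growing on glucose ferments it and spends much of its translation on making more ribosomes and glycolytic enzymes, under the control of protein kinase A and TOR. When glucose is gone, genes for respiration, for use of acetate, ethanol and fatty acids, and for stress protection are derepressed, and bulk translation falls. A share says nothing about that fall: every library is scaled to its own total, so a gene can gain share while fewer ribosomes translate it.

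Libraries held 4159880, 8680468 and 6509688 counts in +GLU replicates 1, 2 and 3, and 7921427, 2462250 and 2391712 in -GLU replicates 1, 2 and 3. A count of 3, the limit below which a gene cannot be told from absent, corresponds to 0.346 to 1.25 counts per 1e6 counts. Whether replicates were separate cultures is not stated, so each p-value reflects the spread among these libraries alone, and that spread may be technical. Markers of a-cells (7 of 7 listed genes present) summed to 1711 to 1833 counts per 1e6 with glucose and 206 to 1040 without. Markers of alpha-cells (4 of 4) summed to 10.6 to 12.5 and 34.1 to 47.7, with MF(ALPHA)1 and MF(ALPHA)2, the alpha-factor genes, at under 1 count per 1e6 in every library, and the a-cell list was the more abundant in every library.

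The -GLU libraries resembled each other less than the +GLU libraries did, and -GLU replicate 3 stood apart. The authors' counts and RPKM values imply a counted region equal to the coding length less 24 nt in 5 libraries and to the coding length plus 2 nt in -GLU replicate 3. The identical or nearly identical gene pairs also differed there. RPL41A and RPL41B, which encode the same very short ribosomal protein, were listed at 0 in 5 libraries but held 0.0227% and 0.0237% in -GLU replicate 3. TEF1 and TEF2, which both encode elongation factor eEF1A, held 0.0344% to 0.0479% and 0.0383% to 0.0454% in the +GLU libraries, 0.00995% or less in -GLU replicates 1 and 2, and 0.133% and 0.216% in -GLU replicate 3. The values of gene pairs of this kind are therefore uncertain. Counts of called genes, and fitted changes of called genes, that move by more than 1.5 times without this or another library are given both ways, and the part of the counting in them was not tested.

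Most of the pool changed hands between the states. Between any +GLU and any -GLU library, 59.4% to 64.2% of footprints (median 61.9%) would have to move to other genes to turn one distribution into the other. The same measure was 4.09% to 8.81% among the +GLU libraries and 14.3% to 32.4% among the -GLU libraries, so the 9 distances between states all exceeded the distances within them. In mean shares, 60.9 percentage points passed from 1979 genes to 3658 genes. The loss was carried by fewer genes than the gain: 50% of it came from 78 genes, while 50% of the gain went to 124 genes, and 90% of each involved 495 and 1106 genes.

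Footprints were tested per gene with edgeR's quasi-likelihood test, which scales libraries by TMM (a trimmed mean of gene ratios) and calls a gene at a Benjamini-Hochberg adjusted p under 0.05. Of the genes tested, 1798 rose (33.8%) and 1648 fell (31%) without glucose, 64.8% in all, and 52.2% of the calls were upward. Scaled to total counts, as shares are, 2416 rose (45.4%) and 1201 fell (22.6%), 66.8% of the calls upward. The median log2 change of all genes was 0.10 with TMM and 0.54 with total counts. With TMM and without -GLU replicate 3, 2041 rose and 1867 fell of 5346 tested, the background for class counts given without that library. Log2 changes below are -GLU against +GLU with TMM factors, given with their SE, and a gene near 0 relative to that scale can still gain share. Ranges of share in the fed and starved libraries were separate for 75.2% of genes, with 2588 higher (48.7%) and 1414 lower without glucose (26.6%).

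The leading genes of the states were almost entirely different. The 100 genes with the highest mean share with glucose held 36.7% to 39.0% of footprints in the +GLU libraries and 4.58% to 5.49% in the -GLU libraries. The 100 that led without glucose held 26.7% to 32.8% there and 6.59% to 7.37% with glucose. The lists shared 8 genes, 8% of each. The first list held 48 cytosolic ribosomal protein genes, 13 of glycolysis and fermentation, 7 translation factors and 6 of amino acid biosynthesis. The second held 23 genes of gluconeogenesis and non-fermentable carbon use, 17 of the respiratory chain, 11 of the tricarboxylic acid cycle, 10 of stress and stationary phase, and 0 cytosolic ribosomal protein genes. The shared genes were SED1, FLO11, LEU1, YHB1, HYP2, CCW12, ACT1 and TDH3, of which the last 4 and LEU1 fell in the test and the other 3 were not called.

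**Figure D1:**
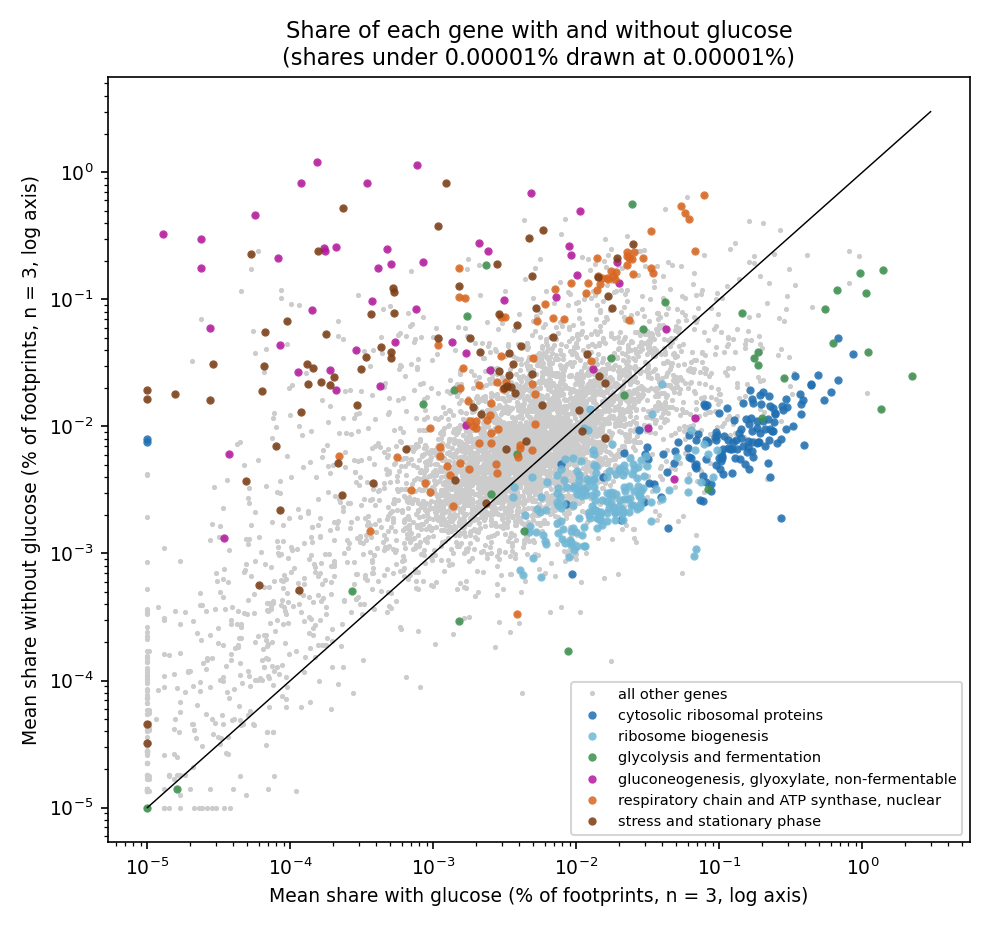
Mean share of all footprints per gene in the 3 +GLU libraries (x axis) against the 3 -GLU libraries (y axis), in percent on log axes, with 6 gene classes coloured and a line of equal share. Cytosolic ribosomal protein genes lie below the line as a compact group, except RPL41A and RPL41B, which were listed at 0 with glucose. Genes of gluconeogenesis and of stress spread far above the line, many from shares under 0.001% with glucose.

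The translation apparatus itself gave up the largest block of footprints. Cytosolic ribosomal protein genes held 24.8%, 22.5% and 22.2% of footprints in +GLU replicates 1 to 3 and 1.39%, 1.25% and 1.29% in -GLU replicates 1 to 3. The states were far apart, and -GLU replicate 3 lay between the other 2. All 136 tested members fell, against 31% of all genes, with a median log2 change of -4.57 (range -7.62 to -1.03), where the median of all genes was 0.10. The 2 members not tested were RPL41A and RPL41B. Proteins of the small subunit (56 of 56 down, median -4.38) and of the large subunit (79 of 79 down, median -4.64) moved alike. Two-sided exact permutation tests over the 6 libraries cannot give a p below 0.10, which was reached by this and every other class described here except chaperones and histones (Benjamini-Hochberg adjusted p = 0.108, exact permutation test over 26 classes, n = 3 and 3).

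RPL3 (YOR063W), a core protein of the large subunit near the peptidyl transferase centre, held 0.792%, 0.907% and 0.862% with glucose and 0.0452%, 0.0363% and 0.0293% without. Its states did not overlap, and it fell by 4.96 ± 0.41 on the log2 scale (edgeR adjusted p = 5.63e-05). RPL10 (YLR075W), which joins the large subunit late in its assembly, held 0.742%, 0.617% and 0.659% against 0.05002%, 0.0387% and 0.0606%, a change of -4.20 ± 0.35 (edgeR adjusted p = 5.98e-05). Both were among the 3 ribosomal protein genes with the largest loss of share. Duplicated members did not fall by one amount. RPL9A fell by 7.62 ± 0.47 and its copy RPL9B by 2.88 ± 0.32, a pair named after the values were seen and one whose similar sequences make the split between them uncertain.

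Genes that build ribosomes fell with those that compose them. Ribosome biogenesis genes (179) held 3.58%, 3.59% and 3.16% with glucose and 0.712%, 0.598% and 0.445% without, and 177 of 179 tested fell while 0 rose (median log2 change -2.96). The box C/D snoRNP proteins NOP56 (YLR197W) and NOP1 (YDL014W), which guide and carry out rRNA methylation, changed by -4.28 ± 0.40 and -4.89 ± 0.43. RPA190 (YOR341W), the largest subunit of RNA polymerase I, changed by -4.18 ± 0.66 (-4.81 without -GLU replicate 1). SFP1 (YLR403W), a transcription factor for ribosomal genes, held 0.0115% to 0.0141% with glucose and 0.0110% to 0.0153% without and was not called (log2 change -0.29 ± 0.22, edgeR adjusted p = 0.26; 0.13 with total counts).

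Translation factors and aminoacyl-tRNA synthetases followed. Translation factors (56) held 4.94%, 5.32% and 5.07% with glucose and 1.31%, 1.15% and 1.53% without, with 46 down and 2 up. YEF3 (YLR249W), the fungal elongation factor eEF3, held 0.951%, 1.16% and 1.12% with glucose and 0.0295%, 0.0189% and 0.00648% without, a change of -6.29 ± 0.72 (edgeR adjusted p = 2.18e-04). Its paralog HEF3 was one of the 2 risers, from 0.000737% to 0.000913% with glucose to 0.00612% to 0.00954% without (2.86 ± 0.22), and the other was the DED1-related helicase gene DBP1 (2.74 ± 0.23). EFB1, the exchange factor subunit of eEF1, changed by -4.08 ± 0.49, and STM1, a protein that binds inactive ribosomes, by -4.59 ± 0.39. Of 22 synthetase genes 21 fell, among them CDC60 (leucine, -3.54 ± 0.28), ILS1 (isoleucine, -3.88 ± 0.36) and VAS1 (valine, -3.01 ± 0.43), and the class went from 1.87% ± 0.0952 to 0.425% ± 0.107 (mean ± SD, n = 3 each). The exception was GRS2, a second glycine synthetase gene, which rose by 1.08 ± 0.28. The 4 classes together went from 35.1%, 33.4% and 32.3% of all footprints to 3.94%, 3.42% and 3.59%.

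Short DNA elements lie upstream of many of these genes, and 4 examples from the reference genome are printed here to show the motifs that the counts below refer to. The searches covered the 500 bases before the start codon of 5692 genes on both strands, in the S288C reference R64 of RefSeq, not in the strain used. Capitals mark the motif, and the sequences are written on the strand of the gene.
PGK1: aactgaaaaaACCCAGACAcgctcgacttc
NOP56: atgggaaatgAAAAATTTTgtgcaattgcg
HSP12: gttccggtcgtcCCCCTcttgatctgaaag
TMA10: ttgagccaccccCCCCTcaggagtaaattt

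The PGK1 window lies at chrIII:137264-137293 on the plus strand, upstream of a glycolytic gene described below, and holds a match to the core of the site of Rap1, a general regulator of ribosomal protein and glycolytic genes, searched as ACCCNNACA. This pattern stood upstream of 39.1% of ribosomal protein genes, 12.1% of glycolysis and fermentation genes and 5.53% of all genes. The NOP56 window, chrXII:545976-546005 on the plus strand, holds the rRNA processing element RRPE, searched as AAAAATTTT, found upstream of 62.0% of ribosome biogenesis genes, 57.1% of translation factors, 59.1% of synthetase genes and 9.86% of all genes. The PAC element, searched as GCGATGAG, stood upstream of 45.3% of biogenesis genes, 0.725% of ribosomal protein genes and 5.06% of all genes. The HSP12 window (chrVI:107054-107083, plus strand) and the TMA10 window (chrXII:783708-783737, minus strand) hold the stress response element of Msn2 and Msn4, searched as CCCCT. It stood upstream of 75.9% of stress and stationary phase genes and of 18 of 24 trehalose and glycogen genes, against 34.5% of all genes. It was found upstream of 9 of the 12 genes with the largest gain of share and of 10 of the 12 with the largest loss, and at least 2 copies stood upstream of 6 and 2 of them. A match describes the letters of the window and is not a measured site.

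Glycolysis and fermentation gave up the next largest share. The 33 genes held 9.77%, 11.8% and 12.5% with glucose and 1.20%, 1.48% and 3.51% without, so the states did not overlap, but -GLU replicate 3 was 2.62 times the mean of the other 2, which was 1.34%. Of 31 tested, 18 fell and 5 rose (median log2 change -2.77). PDC1 (YLR044C), pyruvate decarboxylase, the entry to ethanol fermentation, was the most translated gene with glucose, at 2.08%, 2.26% and 2.36%, and held 0.0170%, 0.0196% and 0.0377% without (-6.96 ± 0.57, edgeR adjusted p = 5.57e-05). CDC19 (YAL038W), the main pyruvate kinase, whose step gluconeogenesis bypasses, held 1.06%, 1.45% and 1.57% against 0.00669%, 0.00893% and 0.0253% (-7.13 ± 0.71, edgeR adjusted p = 1.24e-04; -7.86 without -GLU replicate 3). Both were lower in every starved library by a wide margin.

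Other glycolytic enzymes with large losses of share also fell. TDH3 (YGR192C), glyceraldehyde-3-phosphate dehydrogenase, changed by -3.52 ± 0.76, FBA1 (aldolase) by -3.73 ± 0.74, PGK1 (phosphoglycerate kinase) by -3.07 ± 0.70, and ENO2 (enolase) by -5.31 ± 0.80. All 4 were highest among the starved libraries in -GLU replicate 3, where TDH3 held 0.374% against 0.0605% and 0.0749%. Without that library the changes were -4.76 for TDH3, -4.89 for FBA1, -4.002 for PGK1 and -6.04 for ENO2. The 5 risers, counted from the same table, were the glucose kinase genes GLK1 and HXK1, TDH1, GPM2 and PYK2. GLK1 (YCL040W), the largest exception of the class, held 0.0183%, 0.0247% and 0.0307% with glucose and 0.426%, 0.539% and 0.717% without (4.05 ± 0.38, edgeR adjusted p = 1.02e-04). Every starved library exceeded every fed one by more than 10 times, and GLK1 was among the 12 genes with the highest share without glucose.

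**Figure D2:**
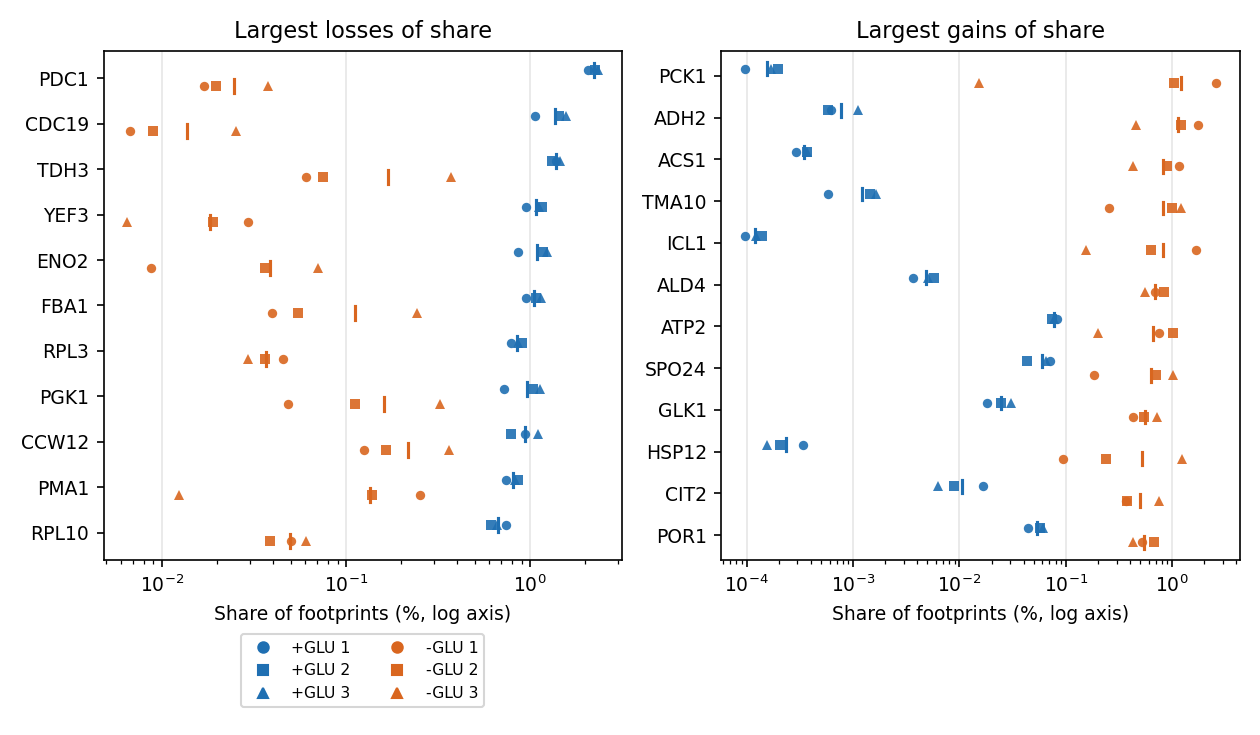
Share of all footprints (percent, log axis) in each of the 6 libraries for 11 of the 12 genes with the largest loss and the 12 with the largest gain of mean share. Symbols are libraries and vertical bars the mean of 3. None of the genes shown overlaps between states, and PCK1 in -GLU replicate 3, at 0.0151%, is the gain furthest from its replicates.

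Genes of gluconeogenesis, the glyoxylate cycle and use of non-fermentable carbon together took up the largest gain of the 25 classes. This class (49 genes) held 0.293%, 0.326% and 0.325% with glucose and 14.6%, 10.95% and 6.599% without. The lowest starved library was still far above the highest fed one, and -GLU replicate 3 was the lowest. Of the 49 members 44 rose, against 33.8% of all genes, and 3 fell (median log2 change 6.62). PCK1 (YKR097W), phosphoenolpyruvate carboxykinase, the committed step of gluconeogenesis, had 4, 17 and 11 counts with glucose and held 2.59%, 1.03% and 0.0151% of all footprints without. It was the leading gene of -GLU replicate 1 but not of replicate 3, and the fitted change was 12.47 ± 2.05 (edgeR adjusted p = 0.00128; 11.23 without -GLU replicate 1).

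Genes of ethanol and acetate use and of the glyoxylate cycle, members of the same class as PCK1, rose as well. ADH2 (YMR303C), the alcohol dehydrogenase that oxidises ethanol, held 0.000576% to 0.00112% with glucose and 1.73%, 1.20% and 0.460% without (10.09 ± 0.83). ACS1 (YAL054C), acetyl-CoA synthetase, held 0.000288% to 0.000369% against 1.17%, 0.890% and 0.427% (10.79 ± 0.68), and ALD4, mitochondrial acetaldehyde dehydrogenase, 0.00368% to 0.00581% against 0.688%, 0.837% and 0.554% (6.71 ± 0.44). ICL1 (YER065C), isocitrate lyase of the glyoxylate cycle, had 4, 12 and 8 counts with glucose, near the floor of 3. It held 1.66%, 0.632% and 0.156% without glucose (12.28 ± 1.23, or 11.18 without -GLU replicate 1). CIT2, the peroxisomal citrate synthase of that cycle, held 0.364%, 0.376% and 0.757% without glucose (5.12 ± 0.51). All 5 rose in the test, and CIT2 alone among them was highest in -GLU replicate 3. The largest exception of the class by share was MAE1, the malic enzyme, which fell by 3.00 ± 0.33.

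A part of the starved pool sat on genes that had nearly no ribosomes with glucose. Below 1 count per 1e6 in all 3 +GLU libraries were 401 genes, which together held 0.00658% to 0.0100% of footprints there and 3.25%, 2.30% and 2.59% in the -GLU libraries. Since they were chosen as low with glucose, only their size without it is informative. Among them, 9 reached a mean of at least 0.1% without glucose, namely MLS1, RGI2, FBP1, SPG4, SFC1, ADY2, POT1, DPA10 and HXT5. MLS1 (YNL117W), malate synthase, went from 4, 5 and 1 counts to 73793, 10278 and 796, and FBP1 (YLR377C), fructose-1,6-bisphosphatase, from 2, 2 and 0 to 40763, 8834 and 606. POT1 (YIL160C), the thiolase of fatty acid beta-oxidation, went from 3, 1 and 5 to 14066, 4405 and 3962, and held nearly equal shares of the 3 starved libraries (0.178%, 0.179% and 0.166%). The reverse was not seen at this cut: the 209 genes below 1 count per 1e6 in every -GLU library held at most 0.00754% with glucose. The directions do not share a detection limit. The floor of 3 counts is 1.22 and 1.25 per 1e6 in -GLU replicates 2 and 3, above the cut. In the +GLU libraries it is 0.346 to 0.721, below the cut.

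Glucose and fat uptake genes moved on a smaller scale. Hexose transport (20 genes) held 0.0810%, 0.0817% and 0.0705% with glucose and 0.372%, 0.603% and 0.0817% without, so -GLU replicate 3 was level with the highest fed library. Of 13 tested, 9 rose (69.2%, against 33.8% of all genes) and 3 fell (23.1%, against 31%). HXT6, a high-affinity transporter with a nearly identical neighbour, rose by 6.04 ± 0.90 and HXT4 by 3.29 ± 0.59, whereas HXT3, a low-affinity transporter, fell by 1.84 ± 0.60. HXT3 lost its call with total counts (edgeR adjusted p = 0.055) and without +GLU replicate 1, +GLU replicate 2 or -GLU replicate 1. HXT5, induced by slow growth, rose by 9.76 ± 1.24 from 3, 8 and 6 counts with glucose, near the floor of 3. Without -GLU replicate 2 the changes were 4.98 for HXT6, 2.69 for HXT4 and -2.602 for HXT3, and without -GLU replicate 1 that of HXT5 was 9.11. Peroxisome and beta-oxidation genes went from 0.168% ± 0.00296 to 1.36% ± 0.168, with 38 of 46 up. CTA1, peroxisomal catalase, had 2, 2 and 7 counts with glucose, which is about the floor, and held 0.252%, 0.224% and 0.2499% without, and FOX2, the multifunctional beta-oxidation enzyme, rose by 7.47 ± 0.32. FAA4, an acyl-CoA synthetase, overlapped between states (-0.76 ± 0.30, edgeR adjusted p = 0.056).

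Mitochondrial energy metabolism formed another block of gains. The tricarboxylic acid cycle, the nuclear respiratory chain and ATP synthase, and mitochondrial ribosomal proteins together went from 2.08%, 1.96% and 2.04% of footprints to 15.99%, 15.4% and 12.6%. Respiratory genes (87) held 1.09%, 0.943% and 1.00% with glucose and 8.50%, 8.48% and 8.08% without, with 77 up and 1 down (median 2.53). This class varied little among the starved libraries, unlike the class of gluconeogenesis and non-fermentable carbon use. Among its largest gains, ATP2 (YJR121W), the catalytic beta subunit of ATP synthase, held 0.0823%, 0.0742% and 0.0766% against 0.752%, 1.02% and 0.199% (2.67 ± 0.61, edgeR adjusted p = 0.00608). ATP1, the alpha subunit, rose by 2.65 ± 0.48 and POR1, the outer membrane porin counted with this class, by 2.89 ± 0.36. AAC3, the ADP/ATP carrier of hypoxic cells, was the exception and fell by 4.18 ± 0.58 (-5.303 without -GLU replicate 3).

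The tricarboxylic acid cycle went from 0.598% ± 0.0443 to 4.09% ± 1.21, with 21 of 26 tested up and 1 down. CIT1, mitochondrial citrate synthase, rose by 5.28 ± 0.37, the succinate dehydrogenase subunit SDH2 by 4.97 ± 0.42, and ACO1, aconitase, by 3.22 ± 0.51 to 0.766%, 0.556% and 0.229%. Mitochondrial ribosomal proteins went from 0.417% ± 0.0195 to 2.21% ± 0.364, and 77 of 78 rose (median 1.88, range 0.65 to 3.55), among them MNP1 (1.93 ± 0.26) and MRPS12 (2.51 ± 0.22). With glucose the cytosolic ribosomal proteins held 23.2% and the mitochondrial ones 0.417%, and without it 1.31% and 2.21%, so the order of the classes turned.

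**Figure D3:**
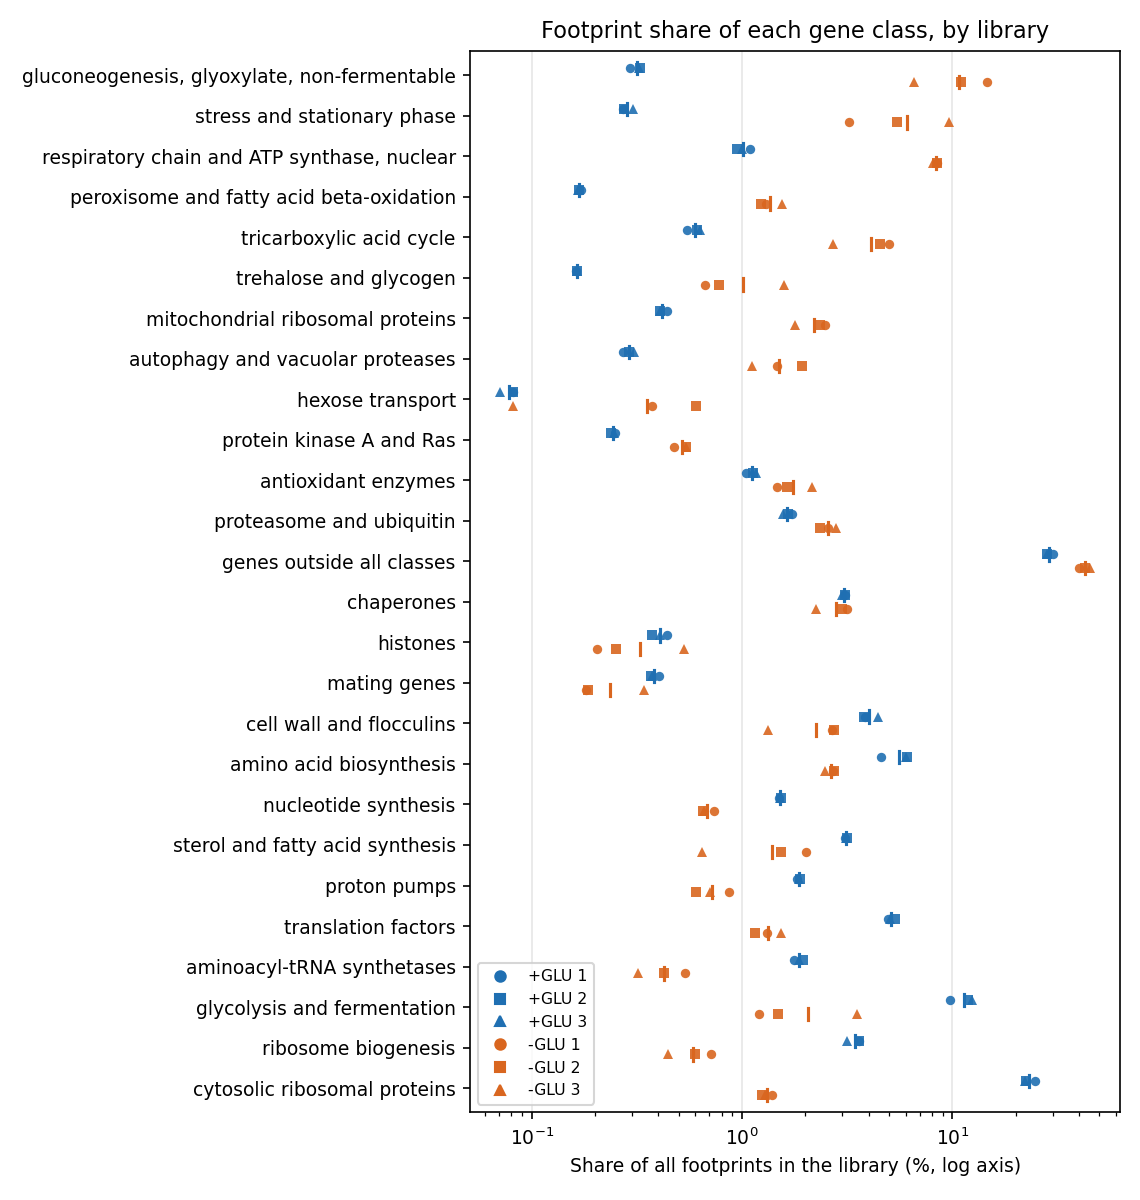
Share of all footprints (percent, log axis) held by each of the 25 gene classes and by the genes outside them, in each library, with symbols for libraries and vertical bars for the mean of 3, ordered by the ratio of the states. Cytosolic ribosomal proteins go from 23.2% to 1.31% at the bottom. The class of gluconeogenesis, glyoxylate cycle and non-fermentable carbon use goes from 0.315% to 10.7% at the top. The triangle of -GLU replicate 3 lies off the other starved libraries in most rows.

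Stress and storage genes also gained, and most in -GLU replicate 3. Stress and stationary phase genes (83) held 0.273%, 0.273% and 0.303% with glucose and 3.22%, 5.46% and 9.64% without, with 73 of 80 tested up and 1 down (median 4.39). TMA10 (YLR327C), a ribosome-associated protein of stressed cells, held 0.000577% to 0.00164% with glucose and 0.255%, 0.996% and 1.21% without (8.89 ± 0.88, edgeR adjusted p = 1.19e-04). HSP12 (YFL014W), a small membrane-stabilising protein, held 0.000154% to 0.000337% against 0.0938%, 0.238% and 1.23% (10.66 ± 1.25; 9.13 without -GLU replicate 3). Every starved library lay far above every fed one for both, and HSP12 was the leading gene of -GLU replicate 3. OM45, a mitochondrial outer membrane protein, rose to shares of 0.402%, 0.455% and 0.283% from at most 0.00147%. SUR7, of the plasma membrane eisosome domains, was the exception at -1.38 ± 0.34.

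Trehalose and glycogen genes (24) went from 0.162% to 0.165% to 0.665%, 0.779% and 1.59%, with 20 up and 1 down. TSL1 and TPS2, of the trehalose synthase complex, rose by 5.19 ± 0.39 and 2.58 ± 0.24, and its synthase subunit TPS1 by 2.73 ± 0.42. PGM1, the minor phosphoglucomutase gene, fell by 2.89 ± 0.23. Autophagy and vacuolar protease genes went from 0.290% ± 0.0171 to 1.498% ± 0.401 with 39 of 50 up, led by the carboxypeptidase Y gene PRC1 (2.72 ± 0.59; 2.10 without -GLU replicate 2), the protease B gene PRB1 (2.63 ± 0.39) and PBI2, the inhibitor of protease B (6.23 ± 0.27). Protease and inhibitor rose together.

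Some classes held their share or split. Chaperones held 3.09%, 3.08% and 2.98% with glucose and 3.14%, 3.00% and 2.26% without, overlapping ranges (p = 0.7, exact permutation test). Of 62 members 12 rose (19.4%, against 33.8% of all genes) and 26 fell (41.9%, against 31%). SSA2 (YLL024C), an Hsp70 of growing cells, held 0.267% to 0.271% against 0.00764% to 0.0132% (-5.07 ± 0.34), while the disaggregase HSP104 held 0.0266% to 0.0293% against 0.191% to 0.284% (2.67 ± 0.27). SSC1, the mitochondrial Hsp70, held 0.136% to 0.177% against 0.551%, 0.543% and 0.141% and was called only without -GLU replicate 3 (0.94 ± 0.54, edgeR adjusted p = 0.16; 0.000488 without that library) or with total counts. Without that library 20 of 62 chaperones rose and 29 fell, while over all genes 2041 rose and 1867 fell of 5346 tested.

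The proteasome and ubiquitin class went from 1.64% ± 0.0803 to 2.57% ± 0.226. Of 64 tested, 16 rose (25%, against 33.8% of all genes), 2 fell (3.13%, against 31%) and 46 were not called. The median log2 change of the class was 0.14, beside 0.10 for all genes. Without -GLU replicate 3, 17 rose and 7 fell. Its median was close to that of all genes. UBI4, the polyubiquitin gene of stressed cells, rose from 0.0120%, 0.0165% and 0.0182% to 0.171%, 0.211% and 0.216% (3.22 ± 0.29), while the proteasome subunit RPN8 (0.48 ± 0.23, edgeR adjusted p = 0.10) and the segregase CDC48 (-0.16 ± 0.28, edgeR adjusted p = 0.65; 0.28 with total counts) were not called. Antioxidant enzymes went from 1.11% ± 0.0590 to 1.75% ± 0.357. Of 39 members 24 rose (61.5%, against 33.8% of all genes) and 10 fell (25.6%, against 31%). The superoxide dismutase SOD1 rose by 1.04 ± 0.33 and lost its call when +GLU replicate 1, 2 or 3 was left out. The peroxiredoxin AHP1 rose by 1.53 ± 0.56 (0.78 without -GLU replicate 3) and lost its call when any of 5 of the 6 libraries was left out. GND1, of the pentose phosphate pathway, fell by 4.48 ± 0.28.

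Biosynthesis of building blocks lost share. Amino acid biosynthesis held 4.57%, 6.08% and 6.03% with glucose and 2.72%, 2.73% and 2.48% without, with 68 down and 10 up of 96. LEU1 (YGL009C), of leucine synthesis, held 0.666%, 0.928% and 0.829% against 0.254%, 0.202% and 0.262% (-2.21 ± 0.35), and ILV5, of branched-chain amino acid synthesis, fell by 2.79 ± 0.42. GDH2, listed with them but a glutamate-degrading dehydrogenase, rose from 0.00315% to 0.00528% to 0.499%, 0.492% and 0.283% (6.195 ± 0.47). Nucleotide synthesis went from 1.51% ± 0.0208 to 0.684% ± 0.0456, with URA1 at -4.60 ± 0.28 and GUA1 at -4.47 ± 0.37, and YNK1, the nucleoside diphosphate kinase, at 2.32 ± 0.25.

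Membrane and wall synthesis fell with a wide spread among starved libraries. Sterol and fatty acid synthesis held 3.08% to 3.15% with glucose and 2.02%, 1.52% and 0.643% without, with 31 of 44 down. ERG1, squalene epoxidase, fell by 3.55 ± 0.53. FAS2 fell by 1.90 ± 0.67 (edgeR adjusted p = 0.038), and FAS1, which encodes the other fatty acid synthase subunit, had a change of -1.80 ± 0.70 (edgeR adjusted p = 0.055). FAS2 lost its call with total counts, without +GLU replicate 1, 2 or 3, and without -GLU replicate 2. FAS1 was called with RLE scaling, DESeq2 or a replicate block, and without -GLU replicate 1 or 3. These genes therefore do not differ clearly from each other. Both fatty acid synthase genes were lowest in -GLU replicate 3, at 0.0236% and 0.0254%. INO1, of inositol synthesis, rose by 7.14 ± 1.28 (6.22 without -GLU replicate 1). Proton pumps went from 1.86% ± 0.0296 to 0.723% ± 0.132, led by PMA1, the plasma membrane pump, at 0.739%, 0.857% and 0.824% against 0.252%, 0.139% and 0.0124% (-2.99 ± 0.95, edgeR adjusted p = 0.025; -3.84 without -GLU replicate 1). Of 19 genes in this class 14 fell (73.7%, against 31% of all genes) and 1 rose (5.26%, against 33.8%), or 16 and 2 without -GLU replicate 3. The 1 that rose was PMP3, a gene of 168 nt counted with this class (1.46 ± 0.29).

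Cell wall genes and flocculins held 3.86%, 3.81% and 4.44% with glucose and 2.68%, 2.73% and 1.33% without, with 36 down and 9 up of 69. Without -GLU replicate 3, 43 fell and 14 rose. CCW12 (YLR110C), the wall mannoprotein with the most footprints with glucose, fell by 2.59 ± 0.48, while TIP1, a wall mannoprotein of stationary and cold-treated cells, rose by 3.80 ± 0.48. FLO11 (YIR019C), the flocculin of filamentous growth, held 0.242%, 0.271% and 0.281% with glucose and 0.493%, 0.485% and 0.0841% without. The third starved library lay below all fed ones and the other 2 above. No change was called with that library (0.01 ± 0.63, edgeR adjusted p = 0.99) or without it (0.48, edgeR adjusted p = 0.069).

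Signalling, mating and chromatin genes made up small parts of the pool. The protein kinase A and Ras class went from 0.244% ± 0.00573 to 0.520% ± 0.0371. Of its 32 members 13 rose (40.6%, against 33.8% of all genes) and 5 fell (15.6%, against 31%). The median log2 change of the class was 0.37, beside 0.10 for all genes. TPK2, a catalytic subunit gene of protein kinase A, rose by 2.59 ± 0.34, and the regulatory subunit gene BCY1 by 1.74 ± 0.26, whereas TPK3, another catalytic subunit gene, fell by 1.30 ± 0.28. The repressor gene MIG1 fell by 1.79 ± 0.27, and SIP2, a beta subunit of the Snf1 kinase, rose by 5.59 ± 0.41. Mating genes went from 0.383% ± 0.0192 to 0.236% ± 0.0913. Of 28 tested, 16 fell (57.1%, against 31% of all genes) and 4 rose (14.3%, against 33.8%). The pheromone receptor gene STE2 was at -4.68 ± 0.29 and the secreted protease gene BAR1 at -4.71 ± 0.36. The exceptions included HMRA1, a gene of the silent mating cassette with copies at other loci, which rose by 2.44 ± 0.42 (1.84 without -GLU replicate 3). MFA2, an a-factor gene, was at 201 to 254 counts per 1e6 with glucose and at 31.4, 59.3 and 893 without. Of 11 histone genes 3 fell (27.3%, against 31% of all genes) and 1 rose, and without -GLU replicate 3, in which the class held 0.528% against 0.204% and 0.252%, 8 fell and 1 rose.

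Genes outside all 25 classes gained in sum, from 30.1%, 28.2% and 28.2% to 40.2%, 42.6% and 45.3%. This was spread over 4287 genes, of which 1291 rose (32.8%, against 33.8% of all genes) and 995 fell (25.3%, against 31%) among 3933 tested, with a median log2 change of 0.19. SPO24 (YPR036W-A), a short protein gene known from sporulation, gained most, from 0.0703%, 0.0431% and 0.0646% to 0.184%, 0.698% and 1.02% (2.96 ± 0.61, edgeR adjusted p = 0.00364). LSP1, an eisosome core protein (2.56 ± 0.32), the membrane organiser NCE102 (1.75 ± 0.26), the carbonic anhydrase NCE103 (4.604 ± 0.74; 3.58 without -GLU replicate 3) and the mitochondrial reductase MCR1 (3.05 ± 0.33) also rose. GSP1, the Ran GTPase, fell by 3.30 ± 0.30, and MYO2, a class V myosin, held 0.482% in -GLU replicate 3 but 0.0156% and 0.0541% in the others and was not called. The gain of YCL042W, from 0.00286% to 0.00541% to 0.102% to 0.175%, lies in a reading frame that overlaps GLK1, so its footprints cannot be separated with confidence from those of GLK1. DMO1 rose by 6.49 ± 0.60 (5.84 without -GLU replicate 2) and ends 130 nt before ATP2 on the same strand, without overlapping it.

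Footprints per length order the genes differently, since a long gene holds more ribosomes at the same density. On shares of density (counts divided by counted length), ribosomal protein genes, most of which are short, held 40.8% ± 1.86 with glucose and 2.66% ± 0.265 without. Stress and stationary phase genes went from 0.366% ± 0.0521 to 10.6% ± 5.38, and respiratory genes from 1.56% ± 0.120 to 14.4% ± 0.396. The densest gene with glucose was CCW12, at 1.82%, 1.63% and 2.24% of all density, and the densest without was TMA10, at 0.918%, 3.34% and 3.13%. SPO24 followed with 0.875%, 3.08% and 3.40% and HOR7, a small stress-induced protein gene, with 0.645%, 1.10% and 1.84%. The states overlapped on this scale for hexose transport, proton pumps, chaperones, histones and mating genes. In the proton pump class, the short gene PMP3 went from a mean of 0.213% to 0.753% of density. The class with PMP3 included went from 1.89% to 1.56%.

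The starved pool was spread over more genes. The fewest genes that hold 50% of the footprints numbered 203, 185 and 179 with glucose and 271, 281 and 303 without, and for 90% they numbered 2052, 1897 and 1911 against 2493, 2468 and 2484 (p = 0.1 for each, two-sided exact permutation test, the smallest possible). The difference lay below the very top. The 10 leading genes of each library held 10.5%, 12.2% and 12.8% against 11.6%, 8.59% and 7.62%, which overlap, while the 100 leading genes held 36.8%, 38.4% and 39.1% against 34.6%, 33.0% and 29.9%, which do not.

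**Figure D4:**
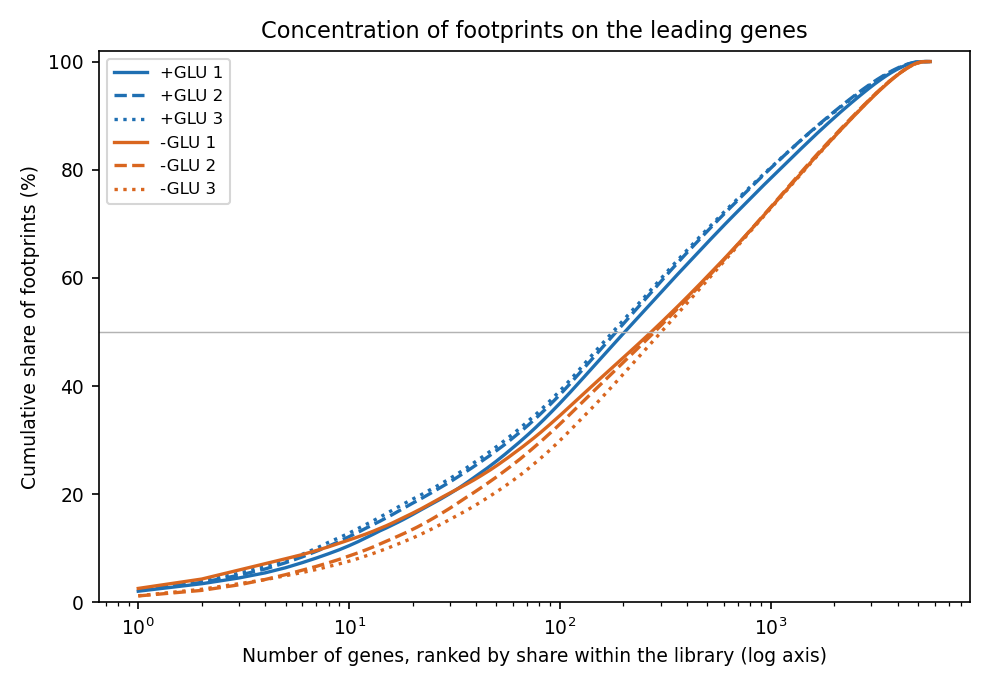
Cumulative share of footprints (percent) against the number of genes, ranked within each library (log axis), for 3 +GLU libraries (blue) and 3 -GLU libraries (orange). The curves mix for the first 10 genes and then separate, reaching the 50% line at 179 to 203 genes with glucose and 271 to 303 without.

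The difference in mean length of the translated genes depended on which libraries were included. The footprint-weighted mean coding length was 1359, 1411 and 1393 nt with glucose and 1469, 1423 and 1238 nt without, and the ranges overlapped (p = 1.0, exact permutation test). The lowest value is that of -GLU replicate 3, whose counted region was longer, and without it the starved values lay above the fed ones, by 58.3 nt in the mean. When ribosomal protein genes were left out it was 1630, 1661 and 1633 nt against 1482, 1435 and 1247.4 nt, with no overlap. Genes of under 300 nt held 3.74%, 3.12% and 3.47% against 4.26%, 5.86% and 9.57%, and the highest of these values belongs to the library whose counted region was longer. The part of the counted region in these lengths and shares was not tested. Genes of 300 to under 600 nt, a range that holds many ribosomal proteins, held 23.1%, 20.5% and 20.6% against 13.2%, 14.3% and 19.8%.

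The codons that the ribosomes were reading changed with the genes. Codon shares were computed from the 5693 matched coding sequences of R64, weighted by each gene's footprints, so they describe the genes and not positions of ribosomes within them. Of 61 codons, 58 did not overlap between states, 21 lower and 37 higher without glucose. The alanine codon GCT went from 4.93%, 4.98% and 5.10% to 3.14%, 3.07% and 3.04%, and the glycine codon GGT from 4.88%, 5.05% and 5.05% to 3.69%, 3.54% and 3.43%. Of the lysine codons, AAG went from 5.55%, 5.52% and 5.49% to 3.81%, 3.85% and 4.14%, while AAA went from 2.78%, 2.70% and 2.64% to 3.60%, 3.56% and 3.64%. For 60 of the 61 codons the starved pool lay nearer to the unweighted mean of all genes. To reach that mean, 22.01%, 22.6% and 22.99% of codon use would have to move to other codons with glucose. Without glucose the values were 8.28%, 8.01% and 7.47%. Without ribosomal protein genes the 4 examples kept their direction without overlap, with GCT at 4.22%, 4.36% and 4.53% against 3.08%, 3.02% and 3.00%, GGT at 4.40% to 4.68% against 3.398% to 3.65%, AAG at 4.38% to 4.51% against 3.74% to 4.07% and AAA at 2.91% to 3.12% against 3.58% to 3.66%.

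Libraries made without cycloheximide, 1 per condition and so without a replicate check, give single values for the classes, of which the main ones follow with the exceptions. In the fast-harvest libraries, ribosomal proteins held 21.8% with glucose and 1.84% without, and 0.611% in the other starved library. Gluconeogenesis and non-fermentable carbon use held 0.295%, 15.7% and 12.6% in the same order, respiratory genes 0.967%, 8.06% and 6.37%, and stress and stationary phase genes 0.247%, 3.84% and 5.35%. Glycolysis and fermentation held 13.7%, 2.22% and 1.74%. For cell wall genes the values were 3.34%, 3.94% and 2.97%, so the fast-harvest library without glucose was not below its counterpart with glucose. The same held for sterol and fatty acid synthesis at 2.59%, 2.74% and 1.99%, where the cycloheximide libraries had lain lower in every starved replicate. In the other starved library, antioxidant enzymes held 1.1998% against 1.36% with glucose, and mating genes 0.172% against 0.142%, both opposite to the direction with cycloheximide. That library was not titled fast harvest and the glucose library was, so harvest and glucose cannot be told apart there. Between the fast-harvest libraries, antioxidant enzymes went from 1.36% to 1.52% and mating genes from 0.142% to 0.0849%, the same directions as with cycloheximide.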

How the data were processed

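Counts per gene, whole numbers not normalised, were deposited by the authors for 6 footprint libraries with cycloheximide and 3 single libraries without it. The RPKM values that the authors deposited (counts per kilobase and per 1e6 counts) served only to derive each library's counted length, which matched within 0.5 nt for 93.5% to 93.8% of genes with over 20 counts. The sources used here do not name the aligner, the genome build or the handling of reads with several matches. The 6 RNA columns of the table were not used, and row YPR203W was left out. Libraries were grouped by their titles.

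Footprint share is a gene's count over all gene counts of the library. Changes were tested with edgeR 4.0.16 (R 4.3.3, quasi-likelihood F test, TMM, filterByExpr with a minimum count of 10, Benjamini-Hochberg at 0.05 over 5319 genes) and the script was tested on simulated data. SE is the log2 change over the square root of F. Single measures used two-sided exact permutation tests (20 splits, scipy 1.17.1). Floors of 3 counts cover counting error only, while SD and SE include the spread between libraries. Alternatives were DESeq2 1.42.0, other scalings, no filter, a replicate block, paralogs summed, density shares and each library left out.

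The 25 classes (1416 genes) and all lists were chosen with earlier results of these data known. Named are the 12 highest genes of each state, the 12 largest gains and losses of share, the 3 largest differences and the largest exception of each class, 10 genes outside the classes, and TPK2, TPK3, BCY1 and FLO11. A few genes that this rule names are not reported here. Others were named after their values were seen. The annotation R64 of RefSeq named 5698 genes, 13 listed genes were not matched, and it served only for names, coding lengths, neighbours, codons and printed sequences.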

Additional observations from a re-analysis of the deposited data

How the results depend on the processing

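The counts of genes that rose and fell stayed within 1.5 times of 1798 and 1648 under each alternative, at 1385 to 2041 and 1499 to 1867 with 1 library left out. Equal replicate numbers did not pair the libraries (r = 0.044 to 0.063), and a replicate block gave 1688 and 1593. The difference of the chaperone share (-0.246 percentage points) turned to 0.178 as density share, and ranged from -0.418 to 0.0251 with 1 library left out, positive without -GLU replicate 3. The difference of weighted coding length (-11.2 nt) ranged from -57.3 to 58.3 with 1 library left out, turning positive without +GLU replicate 2 (0.593) or -GLU replicate 3 (58.3). The share that differs between states was 66.7% on densities. The cause of these shifts was not tested. No called gene named here reversed. Of the named genes, PMA1, GRS2, HXT3, FAA4, SOD1, AHP1, SSC1, RPN8, UBC4, ATG27, FAS1, FAS2, HHO1, RAS2 and MYO2 crossed the threshold under at least 1 alternative. Class counts without -GLU replicate 3 were added after the values were seen. Amino acid demand was not computed, since no protein sequences were used, and codon shares were added in its place. Depth limits genes near 1 count per 1e6.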
